A study of Mus musculus with 14 samples.

Results

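Glucocorticoid-responsive stress genes were followed in the superior mesenteric artery (SMA), the main vessel of the gut, of mice under normal conditions and after ischemia. The 10 genes were Nr3c1, Fkbp5, Cebpd, Klf9, Zbtb16, Tsc22d3, Mt1, Mt2, Sgk1 and Pdk4. They were taken by symbol from the 46095 gene symbols of the deposited count table, and all 10 passed the filter on low counts that left 17693 genes for testing. RNA was sequenced from 14 C57BL/6 mice aged 8 weeks. Of the normal mice 3 were Drp1 +/+ (WT) and 4 were Drp1 KO, and of the ischemic mice likewise 3 were WT and 4 were KO. The KO mice are flox/+ for Drp1 by their labels, whereas the study's methods describe a heterozygous frameshift in the gene made with CRISPR/Cas9. Drp1 is the GTPase that divides mitochondria. The paper reports less Drp1 protein in KO mice, by western blot and by immunofluorescence of the SMA. It also reports a lower sequencing read value for exon 2 of the gene in these mice. How much of Drp1's function was lost in the KO mice is not settled by these sources. Ischemia was a haemorrhage model, in which blood was withdrawn through the femoral artery under pentobarbital anaesthesia. The ischemic libraries are labelled 2 h. A longer period is given in the paper. Whether the mice under normal conditions were anaesthetized or operated on, and the hour at which any mouse was sampled, is not given in the sources used here. Both bear on genes that follow stress hormones and the time of day, and their part in the results was not tested.

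Glucocorticoids are the steroid hormones that the adrenal gland releases under stress, blood loss and anaesthesia. They bind the glucocorticoid receptor, encoded by Nr3c1, which leaves its complex with the chaperone HSP90, enters the nucleus and binds DNA at glucocorticoid response elements. Fkbp5 and Tsc22d3 are among its best-known targets in many tissues, and in vessels the hormone raises tone and restrains inflammation. Several of the genes also answer to other signals, the metallothioneins Mt1 and Mt2 to zinc and cytokines and Cebpd to acute inflammation.

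After ischemia, Cebpd alone of the 10 genes rose past both limits, 2.76-fold when both genotypes were averaged, at a false discovery rate (FDR) of 0.0472. That call was at the edge of the limit and held in 2 of 14 fits with 1 mouse left out. Mt2 and Mt1 had larger fold changes, 5.09-fold and 3.16-fold, and missed the limit on the FDR, at 0.0689 and 0.0784. DESeq2, used as an alternative, called Cebpd, Mt1 and Mt2. Of the textbook targets, Tsc22d3 was 1.47-fold lower at an FDR of 0.248, and Fkbp5 was 1.08-fold higher at an FDR of 0.955 (quasi-likelihood test of edgeR, adjusted by Benjamini-Hochberg). The value for Fkbp5 rested on 1 mouse, WT normal replicate 1, without which its log2 fold change was 2.03 at an FDR of 0.0934. Between the genotypes none of the 10 genes passed, and Pdk4 after ischemia, 4.54-fold higher in KO than in WT mice at an FDR of 0.715, had the smallest p. To be called, a gene needed an FDR under 0.05 together with more than a 1.5-fold change, the limits in the study's methods. Levels are CPM, counts relative to the library total scaled by edgeR's TMM factors, and log2 fold changes with their standard error (SE).

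Total counts ran from 25612646 to 40255851 per mouse. Dnm1l, the symbol of Drp1, was at 73.5 ± 15.1 CPM in normal WT mice (SD, n = 3) and 58.9 ± 3.3 CPM in normal KO mice (SD, n = 4), an FDR of 0.974. In ischemic mice it was at 75 ± 10.3 CPM (SD, n = 3, WT) against 69.4 ± 6.88 CPM (SD, n = 4, KO), an FDR of 0.872. These are counts of the whole gene, from which the exon the paper names cannot be read apart. The smooth muscle genes Myh11 and Acta2 were at 2730 CPM or more in every mouse, but Tagln, another gene of that list, was listed at no more than 5.78 CPM. Adipocyte genes were present in all libraries, though not each of them, since Lep had 0 counts in 1 mouse and Elovl3 as few as 1 count. The summed level of 4 brown adipocyte markers (Ucp1, Cidea, Dio2 and Elovl3) ran from 169 to 6340 CPM, and that of 5 white adipocyte markers from 410 to 9020 CPM. Both extremes belonged to WT mice under normal conditions, replicate 1 at the bottom and replicate 2 at the top. Replicate 1 stood apart in the glucocorticoid-responsive genes too, so results that rest on it are given with and without it. Replicate 3 of that group came from lane 1 and the other 13 libraries from lane 8, so lane and mouse cannot be told apart. In bulk RNA, fewer cells of a type and less RNA per cell cannot be told apart either.

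**Figure D1:**
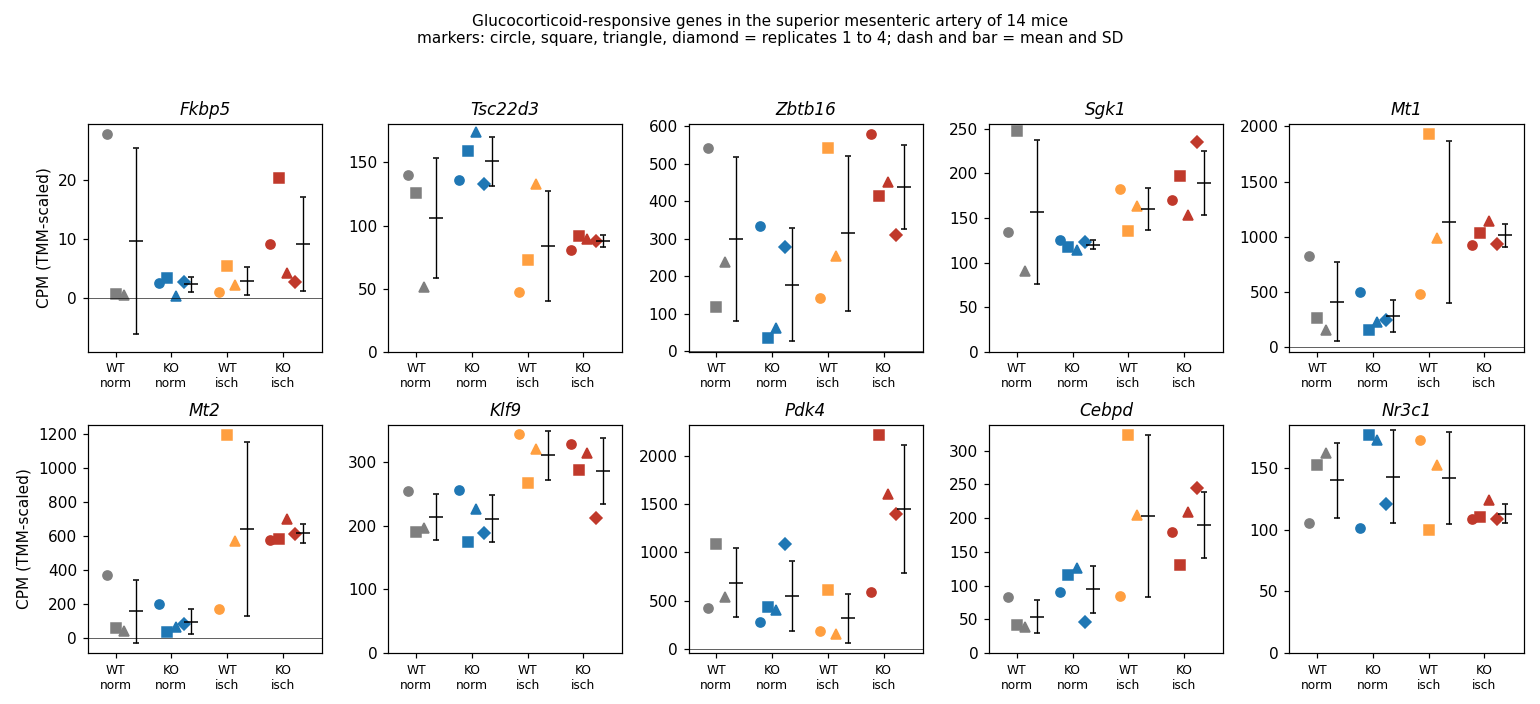
Levels of the 10 genes in TMM-scaled CPM (vertical axes, linear, 1 panel per gene) in each of the 14 mice, by group on the horizontal axis. Symbols mark the replicate number and the dash with its bar the group mean and SD. The circle of WT normal replicate 1 lies far above its group for Fkbp5, at 27.8 CPM, and the ischemic KO squares, triangles and diamonds are the top values for Pdk4.

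Nr3c1 itself, the receptor gene (chr18:39410545-39519421, minus strand, GRCm38, with introns), had the narrowest range of levels of the 10 genes. Normal WT mice had 105, 152 and 162 CPM and KO mice 101, 177, 173 and 121 CPM. Ischemic WT mice had 173, 100 and 152 CPM and KO mice 109, 110, 124 and 109 CPM. All 4 groups overlapped, and over the 14 mice the highest level was 1.77 times the lowest. The log2 fold change with ischemia, averaged over the genotypes, was -0.16 (SE 0.17, FDR of 0.641, edgeR). The interval of 1.96 SE each way, -0.50 to 0.18, holds no change of 1.5-fold in either direction. In KO mice alone the log2 fold change was -0.34 with an interval of -0.78 to 0.10, and between KO and WT mice after ischemia it was -0.32 with an interval of -0.80 to 0.15, and both intervals hold a 1.5-fold fall. The KO mice after ischemia lay close together, with an SD of 7.62 CPM around a mean of 113 CPM (n = 4).

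Proteins that hold, activate or assist the receptor were looked at as a list of 13 genes, among them Hsp90aa1, Fkbp4, Hsd11b1 and the co-activator Ncoa1. None of the 13 was called in any of the 6 comparisons, where at most 0.927% of all genes tested were called. With ischemia averaged over the genotypes, 3 of the 13 were higher and 0 lower at an unadjusted p under 0.05 in edgeR. Over all genes 18.1% were, in either direction. The median log2 fold change of the 13 was 0.20 in that average, against -0.05 over all genes tested. Hsp90aa1, the inducible HSP90, was at a log2 fold change of 0.71 (SE 0.28, FDR of 0.22), and Stip1, which passes clients from HSP70 to HSP90, was at 0.55 (SE 0.25, FDR of 0.271).

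Fkbp5 (chr17:28399094-28517527, minus strand) encodes the co-chaperone that lowers the receptor's affinity for hormone and is itself switched on by it, a feedback loop. It was the scarcest of the 10, with 16 to 943 counts per mouse and a median of 0.292 CPM per kilobase of exon. Levels under normal conditions in WT mice were 27.8, 0.781 and 0.604 CPM and in KO mice 2.68, 3.51, 0.474 and 2.76 CPM. Levels after ischemia in WT mice were 1.06, 5.51 and 2.29 CPM and in KO mice 9.24, 20.3, 4.24 and 2.77 CPM. A single WT mouse under normal conditions, replicate 1, thus had the highest level of all 14, and the other 2 of its group were among the lowest. In WT mice the log2 fold change with ischemia was -1.72 (SE 1.23, FDR of 0.612), and without replicate 1 it was 2.08. In KO mice it was 1.96 (SE 1.07, FDR of 0.465, edgeR), with overlap between the groups. Averaged over the genotypes the value was 0.12 with that mouse and 2.03 without it, so the direction in WT mice and the size of the average rested on 1 library.

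Cebpd (chr16:15887286-15891031, plus strand, a gene without introns) encodes C/EBP delta, a transcription factor of the acute phase response that glucocorticoids also raise. Under normal conditions WT mice had 82.5, 41.7 and 37.9 CPM and KO mice 90.9, 115, 126 and 46.3 CPM. After ischemia WT mice had 83.8, 323 and 204 CPM and KO mice 179, 130, 209 and 244 CPM. Every ischemic mouse lay above every normal mouse of its own genotype, by a small margin in both, since the lowest ischemic WT mouse had 83.8 CPM against 82.5 CPM and the lowest ischemic KO mouse 130 CPM against 126 CPM. With ischemia averaged over the genotypes the log2 fold change was 1.46 (SE 0.32, FDR of 0.0472, edgeR). It was thus 1 of 10 genes called, where 0.927% of all genes tested were called in that comparison. In WT mice alone the log2 fold change was 1.91 (SE 0.48, FDR of 0.445) and in KO mice alone 1.01 (SE 0.41, FDR of 0.308). The call sat at the edge of the limit. It was lost when DESeq2's size factors or upper quartiles replaced TMM, at an FDR of 0.0529 and 0.0632, with the replicate number as a block, at 0.0748, and with any of 12 of the 14 mice left out, whereas the log2 fold change stayed between 1.21 and 1.69. Markers of 2 other cell types followed Cebpd within the groups. The Pearson r of log2 levels, as deviations from the group mean over the 14 mice, was 0.81 with the summed level of 4 fibroblast markers and 0.76 with that of 3 red cell markers, a description without a test. The fibroblast sum was at 1060 to 2840 CPM in normal and 1140 to 5960 CPM in ischemic WT mice, and at 887 to 6290 and 1390 to 1900 CPM in KO mice. The red cell sum ran the other way with ischemia, at 88 to 194 CPM in normal and 3.98 to 89.8 CPM in ischemic WT mice and at 283 to 481 and 62.5 to 151 CPM in KO mice. No marker of either list was at 0 in any mouse, and their part in the result was not tested. Of its exon bases 15% overlap Spidr on the other strand, and the use of strand in counting is not given.

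Klf9 (chr19:23141226-23168134, plus strand), a Krüppel-like repressor that follows both glucocorticoids and the daily clock, was measured at 174 CPM or more in every mouse. Normal WT mice had 255, 190 and 196 CPM and KO mice 256, 174, 226 and 188 CPM. Ischemic WT mice had 344, 268 and 321 CPM and KO mice 328, 288, 314 and 212 CPM. The WT groups did not overlap, and in KO mice replicate 4 after ischemia lay among the normal mice. The log2 fold change averaged over the genotypes was 0.49 (SE 0.15, FDR of 0.128), which is 1.4-fold and so under the limit on size as well. It was 0.54 in WT and 0.44 in KO mice, and the difference between these, -0.10 (SE 0.29, FDR of 0.982), had an interval of -0.68 to 0.47. Tissue markers moved along with Klf9. The sum of 5 smooth muscle markers was at 6970 to 24500 CPM in normal and 19600 to 35700 CPM in ischemic WT mice, and at 10200 to 24200 and 18300 to 29800 CPM in KO mice. Within the groups r with Klf9 was 0.56 for this sum and -0.75 for the brown adipocyte sum (14 mice, no test). Other sums with an r larger in size than 0.56 were white adipocytes (-0.63), intestinal epithelium (-0.71, at most 4.97 CPM) and pancreatic acinar cells (-0.59, at most 3.5 CPM). The part of any of these tissues in the levels of Klf9 was not tested.

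Zbtb16 (chr9:48654297-48836222, minus strand) encodes PLZF, a zinc finger transcription factor that glucocorticoids induce strongly in many tissues. Levels under normal conditions in WT mice were 542, 119 and 237 CPM and in KO mice 334, 34.1, 61.5 and 277 CPM. Levels after ischemia in WT mice were 143, 543 and 255 CPM and in KO mice 579, 414, 451 and 310 CPM. Its level ranged 17-fold between mice, and each normal group held mice as high as ischemic ones. The log2 fold change was 0.07 in WT mice (SE 0.76, FDR of 0.98) and 1.31 in KO mice (SE 0.67, FDR of 0.423). Without WT normal replicate 1 the value in WT mice was 0.81, and without WT ischemia replicate 2 it was -0.61.

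Tsc22d3 (chrX:140539528-140600659, minus strand) encodes GILZ, which carries part of the anti-inflammatory action of glucocorticoids. Under normal conditions WT mice had 140, 126 and 51.5 CPM and KO mice 136, 159, 174 and 133 CPM. After ischemia WT mice had 47.4, 72.4 and 133 CPM and KO mice 80.8, 92.1, 89 and 87.7 CPM. In KO mice the groups were apart, with every ischemic mouse below every normal one and 133 CPM as the lowest normal level. In WT mice they overlapped. The log2 fold change was -0.79 in KO mice (SE 0.32, FDR of 0.306), -0.33 in WT mice (SE 0.36, FDR of 0.744) and -0.56 averaged over them (SE 0.24, FDR of 0.248). Fitted with the KO mice alone, the value was -0.76 at an FDR of 0.0303 in edgeR. Of 8 alternatives this was the 1 that called Tsc22d3 in KO mice, and FDRs among them reached 0.387. With 1 mouse left out, 0 of 14 fits called it. Red cell and macrophage markers moved in the same direction as Tsc22d3. The red cell sum in KO mice was at 283 to 481 CPM under normal conditions and 62.5 to 151 CPM after ischemia, and the sum of 4 macrophage markers, none of them at 0 in any mouse, at 97.3 to 323 and 60.4 to 166 CPM. In WT mice the macrophage sum was at 77.9 to 170 and 27 to 103 CPM. Within the groups r with Tsc22d3 was 0.62 for red cells and 0.54 for macrophages (14 mice, no test), and their part in the result was not tested.

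Mt1 and Mt2, which lie next to each other on chromosome 8 (chr8:94179082-94180327 and chr8:94172664-94173568, plus strand), encode small proteins that bind zinc and copper. Per kilobase of exon they were the most abundant of the 10, with medians of 528 and 489 CPM. Their promoters are shown because both genes answer to metal through short metal response elements (TGCACNC or TGCGCNC, either strand), which stand in capitals in the RefSeq sequence of GRCm38.p6 from 250 bases before to 50 after the start. The window of Mt1, chr8:94178839-94179138 (plus strand), held 3 and that of Mt2, chr8:94172368-94172667 (plus strand), held 4. Among 32851 promoters of that length 25.7% held at least 1.
Mt1: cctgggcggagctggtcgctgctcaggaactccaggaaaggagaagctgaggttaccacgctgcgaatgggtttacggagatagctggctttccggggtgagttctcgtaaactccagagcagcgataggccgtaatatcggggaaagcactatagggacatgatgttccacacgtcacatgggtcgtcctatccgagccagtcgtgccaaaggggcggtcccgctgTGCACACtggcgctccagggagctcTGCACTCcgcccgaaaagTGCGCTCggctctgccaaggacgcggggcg
Mt2: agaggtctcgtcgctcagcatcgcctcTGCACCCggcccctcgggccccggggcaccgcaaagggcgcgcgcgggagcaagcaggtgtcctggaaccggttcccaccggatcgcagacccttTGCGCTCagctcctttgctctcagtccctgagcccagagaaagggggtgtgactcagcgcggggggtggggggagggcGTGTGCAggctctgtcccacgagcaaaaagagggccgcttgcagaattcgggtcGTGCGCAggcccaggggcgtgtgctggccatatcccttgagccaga

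Mt1 in WT mice under normal conditions was at 822, 257 and 149 CPM and in KO mice at 494, 156, 220 and 245 CPM. After ischemia it was at 480, 1930 and 991 CPM in WT mice and at 925, 1030, 1140 and 932 CPM in KO mice. The ischemic KO mice were close together and all above the normal KO mice, whereas WT normal replicate 1 lay above WT ischemia replicate 1. Mt2 had the same layout. Under normal conditions it was at 373, 60.1 and 43.8 CPM in WT mice and at 202, 35, 65.5 and 84 CPM in KO mice. After ischemia it was at 173, 1190 and 570 CPM in WT mice and at 574, 585, 698 and 611 CPM in KO mice.

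With ischemia, averaged over the genotypes, the log2 fold change was 2.35 for Mt2 (SE 0.56, FDR of 0.0689) and 1.66 for Mt1 (SE 0.41, FDR of 0.0784, edgeR). In KO mice alone it was 2.68 for Mt2 (SE 0.74, FDR of 0.149) and 1.85 for Mt1 (SE 0.54, FDR of 0.167). In WT mice alone it was 2.02 for Mt2 (SE 0.83) and 1.47 for Mt1 (SE 0.61), both at an FDR of 0.514. With 1 mouse left out the average was lowest without WT ischemia replicate 2, at 1.95 for Mt2 and 1.35 for Mt1, neither of them called. It was highest without WT normal replicate 1, the top of its group in both genes, whose removal raises the fold change by design. Without WT normal replicate 1 both genes passed the limits in the average, Mt2 at 3.16 (FDR of 0.012) and Mt1 at 2.18 (FDR of 0.015). That mouse had a brown adipocyte marker sum of 169 CPM, against 6340 and 1540 CPM in the other 2 of its group, and the part of adipose tissue in these results was not tested. The share of Mt2 in the counts of both genes was 31.2, 19 and 22.8% in WT and 29, 18.4, 22.9 and 25.5% in KO mice under normal conditions. After ischemia it was 26.5, 38.1 and 36.5% in WT and 38.3, 36.3, 37.9 and 39.6% in KO mice. In 6 of the 7 ischemic mice the share was above that of every normal mouse. WT ischemia replicate 1, lowest of its group in both genes, had a share within the normal range. An antisense gene, Gm45774, covers 73.5% of the exon bases of Mt2 on the other strand, so counts of Mt2 may hold reads of it if strand was not used.

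Other genes of metal handling were looked at as a list of 5, of which 4 could be tested. Slc39a14, a transporter that brings zinc into cells, rose with ischemia, by 1.26 on the log2 scale averaged over the genotypes (SE 0.24, FDR of 0.0265). It had 118, 38.7 and 74.4 CPM in normal WT mice and 142, 207 and 135 CPM in ischemic ones. In KO mice it had 85.1, 47.8, 49.2 and 61.9 CPM under normal conditions and 204, 178, 169 and 123 CPM after ischemia. Both genotypes were thus without overlap. Mtf1, the factor that binds metal response elements, was at -0.30 (SE 0.12, FDR of 0.231), and Mt3, a metallothionein of the brain, at 3.55 (SE 1.33, FDR of 0.195). The value for Mt3 rests on few reads, 0 to 1 counts in normal and 6 to 15 in ischemic WT mice. In KO mice Mt3 had 0 to 14 counts under normal conditions and 0 to 72 after ischemia. Of the 4 genes tested 1 was called higher, where 0.616% of all genes were, and none was called lower. The median of the 4 was 0.70.

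Sgk1 (chr10:21882184-21999903, plus strand) encodes a kinase that controls ion channels and transporters and is named for its induction by serum and glucocorticoids. RefSeq gives it 6 start sites, and the window around 1 of them, chr10:21993640-21993939 (plus strand, GRCm38.p6), held the full palindromic glucocorticoid response element (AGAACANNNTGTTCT). Only 3 of the 32851 promoters hold these letters, or 0.00913%. In the sequence, the arms of the element (AGAACA on either strand, found singly or paired in 19% of promoters) are in capitals. The last 2 of the 3 form the full element.
Sgk1: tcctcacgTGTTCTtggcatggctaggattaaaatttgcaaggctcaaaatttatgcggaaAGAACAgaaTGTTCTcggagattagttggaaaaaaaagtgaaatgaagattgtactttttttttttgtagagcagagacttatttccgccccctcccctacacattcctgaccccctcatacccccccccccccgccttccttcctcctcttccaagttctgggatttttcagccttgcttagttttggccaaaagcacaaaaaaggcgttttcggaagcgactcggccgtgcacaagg

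The window is shown because Sgk1 was the only one of the 7 genes with a promoter in the reference table to hold the full element. Windows of Fkbp5, Tsc22d3, Mt1, Mt2, Klf9 and Pdk4 did not hold it, and those of Zbtb16, Cebpd and Nr3c1 were not analysed here. Sgk1 had 134, 247 and 90.4 CPM in WT and 125, 117, 114 and 123 CPM in KO mice under normal conditions. After ischemia it had 182, 135 and 163 CPM in WT and 170, 197, 153 and 235 CPM in KO mice. Every ischemic KO mouse lay above every normal KO mouse, while the 3 normal WT mice enclosed all ischemic WT mice. The log2 fold change was 0.66 in KO mice (SE 0.26, FDR of 0.292) and 0.03 in WT mice (SE 0.29, FDR of 0.98). The difference between the genotypes, 0.63 (SE 0.39, FDR of 0.946, edgeR), did not pass.

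Pdk4 (chr6:5483351-5496309, minus strand) encodes a kinase that shuts off pyruvate dehydrogenase and so spares glucose when fat is burned. Glucocorticoids and fasting raise it. Normal WT mice had 427, 1090 and 541 CPM and KO mice 286, 434, 408 and 1090 CPM. Ischemic WT mice had 191, 612 and 157 CPM and KO mice 596, 2210, 1600 and 1400 CPM. The 3 highest levels of all 14 mice were in ischemic KO mice and the 2 lowest in ischemic WT mice, but WT replicate 2 and KO replicate 1 crossed at 612 and 596 CPM. Ischemic KO mice were above ischemic WT mice by a log2 fold change of 2.18 (SE 0.63, unadjusted p of 0.00386 and FDR of 0.715 in edgeR). Ischemia changed Pdk4 by 1.39 in KO mice (SE 0.55, FDR of 0.299) and by -1.10 in WT mice (SE 0.63, FDR of 0.55). The difference between these was 2.49 (SE 0.84, unadjusted p of 0.0103, FDR of 0.946), and with any 1 mouse left out it stayed between 2.04 and 3.42.

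Markers of several cell types moved with Pdk4, brown fat among them. After ischemia the brown adipocyte sum was 264, 1400 and 667 CPM in WT mice and 963, 4700, 3840 and 4200 CPM in KO mice. The 3 ischemic KO mice with the highest Pdk4 were the 3 with the highest sums of all ischemic mice. Under normal conditions the sums were 169, 6340 and 1540 CPM in WT mice and 1090, 4020, 1690 and 6030 CPM in KO mice. The 2 normal mice at 1090 CPM of Pdk4 had the 2 highest sums of all. KO normal replicate 2 had 4020 CPM of markers with 434 CPM of Pdk4, fewer than ischemic KO mice at the same sum. Of the 4 markers none was at 0 in any mouse, though Elovl3 had as few as 1 count. Between the genotypes after ischemia 2 of the 4 had an unadjusted p under 0.05 in edgeR. Within the groups r with Pdk4 was 0.78 for the brown adipocyte sum, 0.66 for white adipocytes, 0.81 for endothelium, 0.77 for neutrophils, 0.82 for intestinal epithelium and -0.72 for smooth muscle (14 mice, no test). Of these the neutrophil sum was at most 17.7 CPM, and that of intestinal epithelium at most 4.97 CPM with Fabp2 at 0 in all 14 mice and Epcam in 11. Endothelial sums after ischemia were at 637 to 1100 CPM in WT and 539 to 979 CPM in KO mice. The part of any of these tissues in the difference was not tested.

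**Figure D2:**
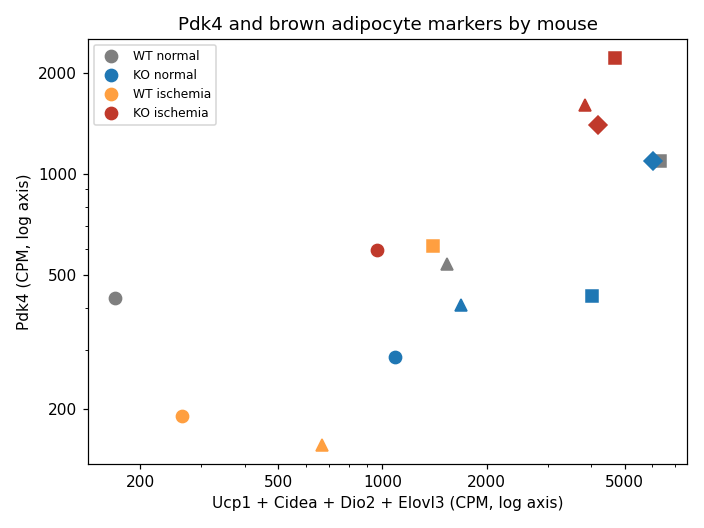
Pdk4 (vertical axis, CPM, log axis) against the summed level of the 4 brown adipocyte markers (horizontal axis, CPM, log axis), 1 symbol per mouse with the shape giving the replicate number and the colour the group. Mice with more marker RNA tend to have more Pdk4, and the 3 ischemic KO mice at 3840 to 4700 CPM of markers lie above KO normal replicate 2 at 4020 CPM.

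The other kinases and phosphatases of pyruvate dehydrogenase formed a list of 5 genes. None was called in any comparison, where at most 0.927% of all genes tested were called. Between the genotypes after ischemia the median log2 fold change of the 5 was 0.92, against -0.03 over all genes tested. Pdk2, another kinase of the complex, had the smallest p with ischemia averaged over the genotypes, at -0.77 (SE 0.35, FDR of 0.264). Pdk3 was at 0.35 and Pdp1, a phosphatase that turns the complex back on, at 0.30. Pdp2, the other such phosphatase, was among the 3 genes of the whole table whose log2 levels were most like those of Pdk4 over the 14 mice (Pearson r = 0.93), beside Wdr73 (0.937) and Atg12 (0.927). These values describe the pattern, carry no test, and all rest on libraries that differ in adipocyte markers. Pdp2 was at 34.2, 61 and 19.6 CPM in ischemic WT mice and at 92, 117, 108 and 84.2 CPM in ischemic KO mice, 1.39 higher on the log2 scale (SE 0.37, FDR of 0.715). Its ischemic groups did not overlap, as was so for 10.7% of all genes.

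Counted together, the 10 genes gave no call in WT mice, where 0.0113% of all genes were called, and none in KO mice, where 0.294% were. At an unadjusted p under 0.05 there were 4 of 10 in WT mice (9.57% of all genes), 7 of 10 in KO mice (13.2%) and 5 of 10 in the average (18.1%). The 4 in WT mice were Cebpd, Mt1, Mt2 and Klf9, all higher. The 7 in KO mice were these 4, Sgk1 and Pdk4, all higher, and Tsc22d3, lower. Normal and ischemic mice did not overlap for 2 genes in WT mice (Cebpd and Klf9, against 11% of all genes) and for 5 in KO mice (Cebpd, Mt1, Mt2, Sgk1 and Tsc22d3, against 11.1%). Across all 7 normal and 7 ischemic mice every one of the 10 genes overlapped, and 0.848% of all genes did not. Median log2 fold changes over the 10 were 0.05 in WT mice, 1.16 in KO mice and 0.42 averaged, beside -0.01, -0.05 and -0.05 over all genes. The 10 were chosen as a family with earlier results known, and no test was made over the family.

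**Figure D3:**
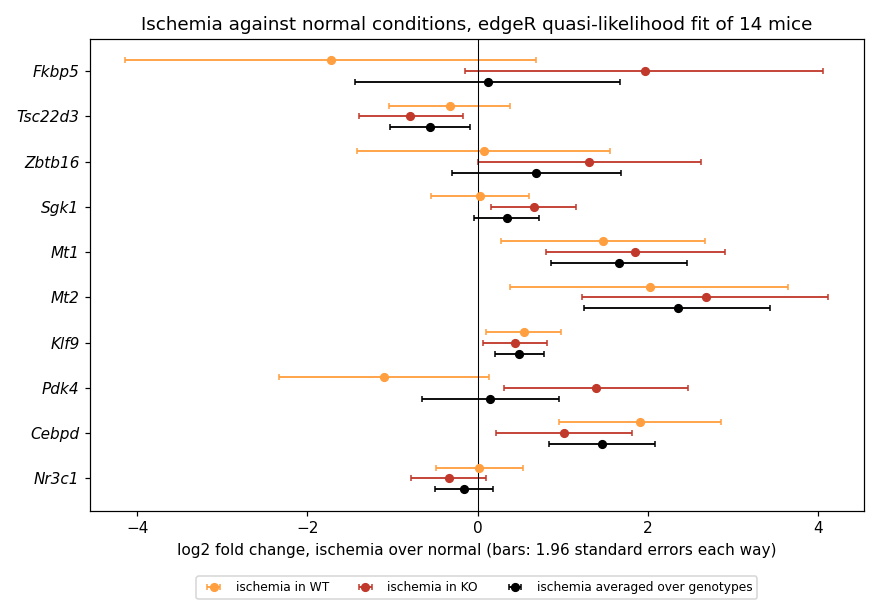
Log2 fold changes of the 10 genes between ischemia and normal conditions (horizontal axis), in WT mice, in KO mice and averaged over the genotypes, from the fit of all 14 mice. Points are estimates and bars reach 1.96 SE each way. Estimates of Cebpd, Mt1, Mt2, Klf9, Zbtb16 and Sgk1 lie right of 0 in all 3 comparisons, while those of Fkbp5, Pdk4 and Nr3c1 lie on opposite sides of 0 in WT and KO mice.

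Between normal KO and normal WT mice 0 of the 10 genes and 0% of all genes were called, and 0 of the 10 had an unadjusted p under 0.05 (5.25% of all genes, edgeR). No pair of groups was without overlap, against 4.5% of all genes. Fkbp5 was at -2.05 (SE 1.13, FDR of 0.974), and at 1.76 without WT normal replicate 1. Cebpd was at 0.80 (SE 0.45, FDR of 0.975) and Tsc22d3 at 0.51 (SE 0.34, FDR of 0.996). For Klf9 and Nr3c1 the intervals were -0.43 to 0.39 and -0.44 to 0.51. After ischemia 0 of the 10 and 0% of all genes were called too, and Pdk4 was the 1 gene with an unadjusted p under 0.05 (6.48% of all genes). Intervals were -1.27 to 0.92 for Mt1, -1.53 to 1.41 for Mt2 and -0.95 to 0.76 for Cebpd, wide enough to hold a change of 1.5-fold in either direction. For the difference in ischemic response between the genotypes 0% of all genes were called and 4.32% had an unadjusted p under 0.05. Among the 10 these were Pdk4 and Fkbp5, the latter at 3.68 (SE 1.64, FDR of 0.946) and at -0.09 without WT normal replicate 1. The comparisons share their control mice, so they are not independent of each other.

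Within the groups some of the genes kept company. Log2 levels were taken as deviations from the group mean in the 14 mice, and each of the 45 pairs was tested by a two-sided exact permutation test that permuted mice within groups in all 20736 ways. Mt1 and Mt2 went together (Pearson r = 0.99, p = 0.000145, adjusted over the 45 pairs 0.00651, and Spearman rho = 0.96, p = 0.000241, adjusted 0.0109). Without the 2 mice farthest from the median of Mt1, r was 0.97. Over all 14 mice both ran against the receptor gene. Between Mt2 and Nr3c1, r was -0.89 (permutation p = 0.00251, adjusted 0.0376) and rho -0.83 (p = 0.00752, adjusted 0.103), with r = -0.86 without the 2 farthest mice. Between Mt1 and Nr3c1, r was -0.87 (permutation p = 0.00203, adjusted 0.0376) and rho -0.81 (p = 0.00641, adjusted 0.103), with r = -0.79 without them. Among the ischemic KO mice neither ran against Nr3c1. Replicate 3 was the highest of that group in Mt1 (1140 CPM), Mt2 (698 CPM) and Nr3c1 (124 CPM). Zbtb16 and Nr3c1 had r = -0.88 (permutation p = 0.00911, adjusted 0.082) and rho = -0.86 (p = 0.00911, adjusted 0.103), which did not pass. In all, 3 of the 45 pairs passed an adjusted 0.05 by r and 1 by both measures. Pairs of other genes were not tested, so how common such values are over all genes is not known. Among the 13 libraries of lane 8, r was 0.99 for Mt1 and Mt2, -0.88 for Mt2 and Nr3c1 and -0.87 for Mt1 and Nr3c1, and without WT normal replicate 1 it was 0.98, -0.87 and -0.85. Lane 1 holds 1 mouse and gives no value.

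**Figure D4:**
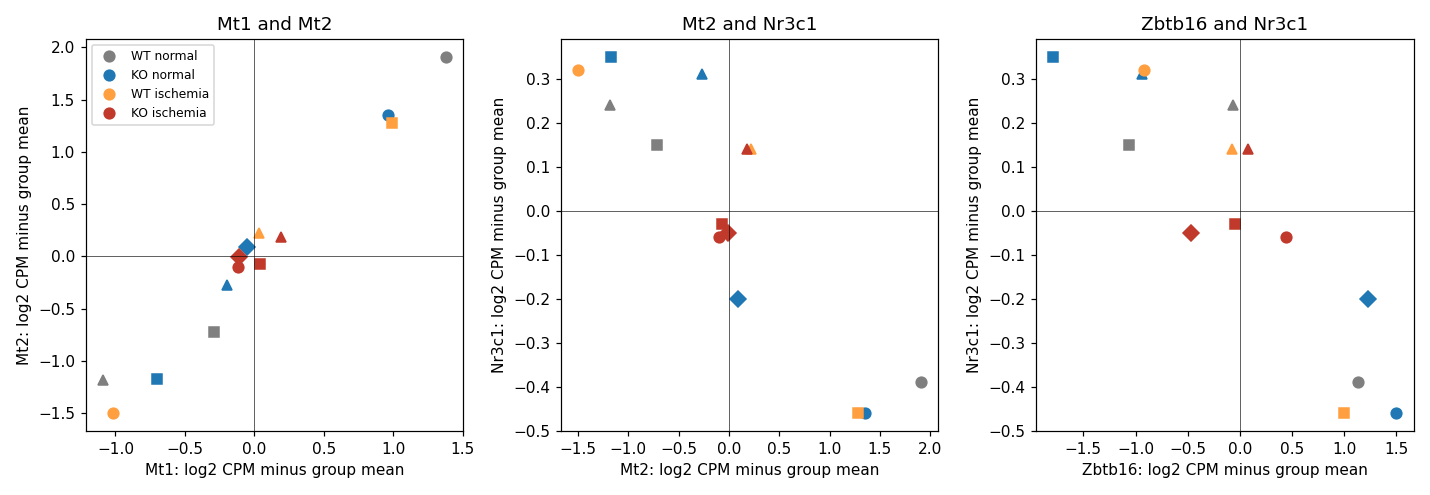
Deviations of log2 CPM from the group mean, 1 symbol per mouse with the shape giving the replicate number and the colour the group, for Mt1 and Mt2, Mt2 and Nr3c1, and Zbtb16 and Nr3c1 (both axes in log2 units). Points rise along 1 line in the first panel and fall in the other panels, with WT normal replicate 1, KO normal replicate 1 and WT ischemia replicate 2 at the end where Mt2 is high and Nr3c1 low.

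The mice at that end were the same for several genes. WT normal replicate 1, KO normal replicate 1 and WT ischemia replicate 2 were each the highest of their group for Mt1, Mt2 and Zbtb16 and the lowest for Nr3c1. Their brown adipocyte sums were 169, 1090 and 1400 CPM, the lowest of the group in both normal mice and the highest in the ischemic one. Their summed immediate early genes (Fos, Egr1, Junb and Atf3), which rise within minutes of many stimuli, were 395, 327 and 776 CPM, the highest of the group in the first and the last and the second highest in KO normal replicate 1. Within the groups the red cell sum had r = 0.60 with Mt1 and with Mt2, and the lymphocyte sum, at most 8.96 CPM with Ms4a1 at 0 in 6 mice, had r = 0.73 with Zbtb16 and -0.61 with Nr3c1 (14 mice, no test). The part of any of these in the pattern was not tested.

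The genes most like each member were read over all 14 mice. Mt1 and Mt2 were most like each other (r = 0.993) and then like Sphk1 (0.948 with Mt1 and 0.963 with Mt2), followed by Lrrc8a for Mt1 (0.943) and Bcl2l1 for Mt2 (0.949). Klf9 was most like its relative Klf13 (0.939), then Ddx5 (0.916) and Samd4b (0.902). For Cebpd the nearest were Csf1 (0.912), Adamts15 (0.895) and Adamts1 (0.895), and for Zbtb16 Ranbp9 (0.859), Hip1r (0.85) and Map3k6 (0.848), the last a listed glucocorticoid target. For Tsc22d3 they were Plxdc1 (0.899), Lefty1 (0.88) and Cmtm3 (0.861), and for Fkbp5 Wbp1l (0.858), Mras (0.811) and Ing5 (0.8). For Sgk1 they were Tpt1-ps3 (0.911), Vps51 (0.882) and Rpl19 (0.86). These are Pearson r of log2 CPM over 14 mice, each the top of 17693 candidates, and hold the differences between groups and in adipocyte markers as well.

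Klf13 and 10 other relatives of the members (of the SGK, C/EBP, TSC22, KLF and FKBP families) had no call in any comparison. Of all genes tested, at most 0.927% were called in a comparison. Averaged over the genotypes, Tsc22d4 was at 0.56 (SE 0.15, FDR of 0.0967), Tsc22d1 at 0.52 (SE 0.15, FDR of 0.117) and Klf13 at 0.50 (SE 0.15, FDR of 0.123), where Tsc22d3 was at -0.56. Of the 11 genes 6 were higher and 2 lower at an unadjusted p under 0.05 (18.1% of all genes in either direction), and their median was 0.27.

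Other known glucocorticoid targets were read from a list of 26 genes, of which all but Angptl4 were tested. With ischemia averaged over the genotypes 5 of the 25 rose past both limits and none fell, where 0.616% of all genes were called higher. At an unadjusted p under 0.05 there were 13 higher and 1 lower (18.1% of all genes in either direction). Their median log2 fold change was 0.67, beside 0.42 for the 10 genes and -0.05 for all genes tested. In WT mice 1 of them was called (0.0113% of all genes) and in KO mice 4 (0.294%), all higher. With the replicate number as a block there were 0 in WT mice. With 1 mouse left out the calls in the average ran from 2, without WT ischemia replicate 2 or KO ischemia replicate 2, to 7, without WT normal replicate 1, and were 3 or fewer without any of 11 of the mice. They ran from 0 to 1 in WT mice and from 1 to 5 in KO mice.

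Nfkbia, the inhibitor of NF-kB that both glucocorticoids and NF-kB itself induce, had the smallest FDR of all genes tested. It was at 135, 105 and 119 CPM in WT and 101, 68.5, 110 and 101 CPM in KO mice under normal conditions. After ischemia it was at 356, 467 and 402 CPM in WT and 280, 340, 314 and 382 CPM in KO mice. The 7 ischemic mice lay above all 7 normal mice, which held for 0.576% of all genes. The log2 fold change was 1.78 (SE 0.14, FDR of 0.000172, edgeR), and Nfkbia was called in WT mice and in KO mice alone as well.

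Ddit4, an inhibitor of mTORC1 that also answers to low oxygen, rose by 1.92 (SE 0.30, FDR of 0.0124) on the log2 scale. It had 142, 106 and 57.9 CPM in WT and 80.8, 41.2, 72.9 and 42.1 CPM in KO mice under normal conditions, and 128, 360 and 480 CPM and 239, 335, 222 and 270 CPM after ischemia, with WT ischemia replicate 1 inside the normal range. Cdkn1a, the cell cycle inhibitor p21 and a p53 target, rose by 2.02 (SE 0.36, FDR of 0.0221). Its normal levels were 314, 73.7 and 93.9 CPM in WT mice and 41.8, 24.6, 22.4 and 59.4 CPM in KO mice, so that WT normal replicate 1 again stood with the ischemic mice, which had 203 to 451 CPM. Zfp36, which destabilizes cytokine mRNAs, rose by 1.18 (SE 0.23, FDR of 0.0299), and Klf15, a metabolic regulator and classical receptor target, by 0.80 (SE 0.17, FDR of 0.049). Klf15 was at 94.3 to 160 CPM in normal WT and 70.2 to 152 CPM in normal KO mice, and at 199 to 214 and 199 to 240 CPM in ischemic ones. Irs2, an adaptor of the insulin receptor, was called in KO mice alone, at 1.59 (SE 0.28, FDR of 0.0286), and was at -0.39 in WT mice (FDR of 0.649). The difference between the genotypes, 1.98 (SE 0.41, unadjusted p of 0.000322), had an FDR of 0.946. Between KO and WT mice 0 of the 25 were called under either condition, with 0 higher and 3 lower at an unadjusted p under 0.05 under normal conditions (5.25% of all genes) and 3 higher and 1 lower after ischemia (6.48%).

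**Figure D5:**
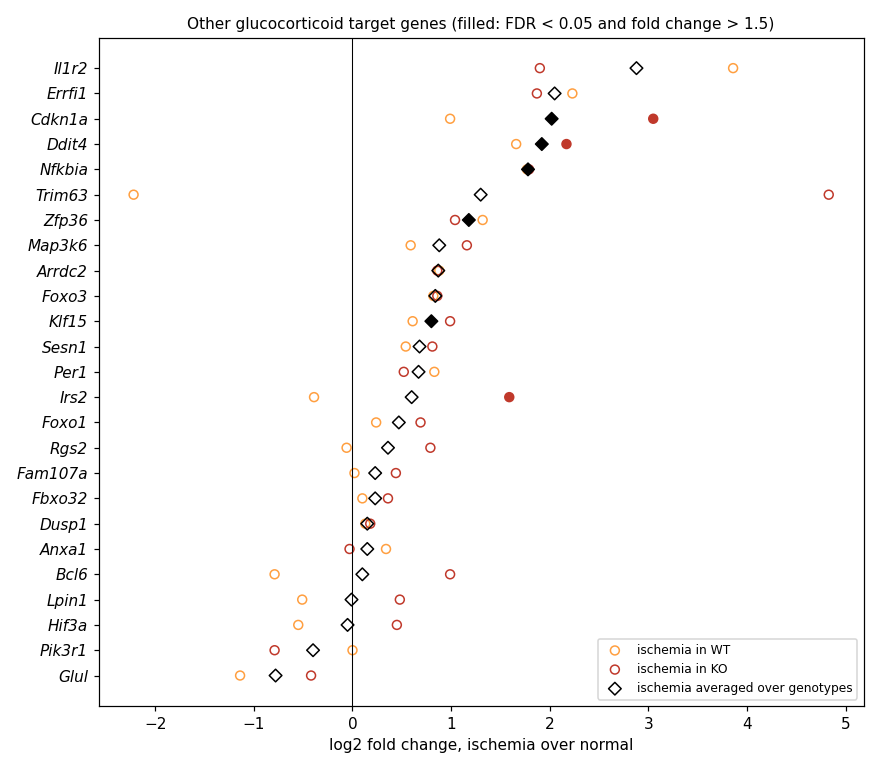
Log2 fold changes between ischemia and normal conditions (horizontal axis) of the 25 other glucocorticoid targets that could be tested, ordered by the average over the genotypes. Circles stand for WT and KO mice, diamonds for the average, and filled symbols for genes past both limits. The filled diamonds are Cdkn1a, Ddit4, Nfkbia, Zfp36 and Klf15, all right of 0.

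Genes of acute inflammation, which cytokines raise and of which glucocorticoids lower several but not all, formed a list of 8. Of these 3 were called, all higher, where 0.616% of all genes were. Icam1 rose by 4.20 (SE 0.40, FDR of 0.000613), Cxcl1 by 6.04 (SE 0.90, FDR of 0.0103) and Socs3 by 3.09 (SE 0.56, FDR of 0.0231) on the log2 scale averaged over the genotypes, and the median of the list was 3.72. The other 5 did not pass. Ccl2 was at 0.87 (FDR of 0.58), Il1b at 2.85 (FDR of 0.235), Saa3 at 4.01 (FDR of 0.171), Il6 at 7.55 (FDR of 0.082) and Lcn2 at 3.43 (FDR of 0.0784). Il6 had 0 counts in every normal WT mouse and 0, 719 and 12 in ischemic WT mice. In KO mice it had 0 to 30 counts under normal conditions and 45 to 445 after ischemia. Il1b and Saa3 also had 0 counts in some mice. The list shares inducers with Cebpd, Mt1, Mt2, Nfkbia and Zfp36, so hormone and cytokine cannot be told apart from these levels.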

How the data were processed

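RNA-seq counts of the SMA of 14 mice were analysed. The authors deposited whole-number read counts per gene symbol and mouse in 1 table, without normalization or pooling. The submitters' processing notes name HISAT2 2.0.4 and mm10, and the counting program, annotation and use of strand are not given in the sources used here, so reads of overlapping genes could not be assigned. Groups came from the sample labels, and 0 columns of single samples were left unused. Counts were scaled by TMM, filtered with filterByExpr and tested in 1 fit of all 4 groups with edgeR 4.0.16 (quasi-likelihood test, Benjamini-Hochberg adjustment over 17693 genes, R 4.3.3). Calls needed an FDR under 0.05 and more than a 1.5-fold change. The average over the genotypes is the mean of the log2 fold changes in WT and KO mice. The biological coefficient of variation was 0.522. A level of 3 counts is the smallest the depth can show, which covers counting error only. Correlations and likeness used log2 CPM with a prior count of 2. Marker sums were correlated as log2(CPM + 1). Counts of mice in the same group differed beyond sampling noise in all 18 pairs (lowest chi-square per degree of freedom, 59.1).

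Named are all 10 members, the genes of each list called in any comparison or with the 3 smallest p values in the average, and the 3 genes most like each member. For Nr3c1 these 3 were unnamed gene models or an antisense transcript and are left out, and a gene of the receptor list that the rule names is not reported here. The members and the lists were chosen with earlier results of these data known. Other genes named were chosen after their values were seen. Positions come from GENCODE M21 on GRCm38 and promoters from RefSeq (GRCm38.p6), in which 7 of the 10 genes were matched. The steps were tested on simulated counts. Alternatives were DESeq2 1.42.0, 2 other scalings, 2 other low-count filters, calls by FDR alone, fits of the compared groups alone, the replicate number as a block, and each mouse left out in turn.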

Additional observations from a re-analysis of the deposited data

Results flagged for a closer look

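Nr3c1 stood out in 1 of the KO mice after ischemia. Replicate 3 was at 124 CPM and the nearest of the other 3 at 110 CPM, and this gap took a share of 0.891 of the group's whole range, above Dixon's critical value for 4 samples at the 95% level. The whole range of that group is narrow. Of 20 gene and group combinations with 4 mice, 1 exceeded the value, and chance alone gives about 1 in 20.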

How the results depend on the processing

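DESeq2 called 112 genes with ischemia in WT mice, 613 in KO mice and 876 in the average, and 50 between the genotypes under normal conditions, 32 after ischemia and 13 for the interaction, where edgeR called 2, 52, 164, 0, 0 and 0. Of the members it called 1 in WT mice (Cebpd), 2 in KO mice (Mt1 and Mt2) and 3 in the average (these 3). In the average, edgeR called 0 members with DESeq2's size factors (Cebpd at an FDR of 0.0529) and 0 with upper quartile scaling (0.0632), and 2 without a low-count filter (Cebpd and Mt2). With only the groups compared in the fit, 0 genes were called in WT mice and 267 in KO mice, 3 of them members (Tsc22d3, Mt1 and Mt2). Deviations of same-numbered mice correlated at -0.146 to 0.316 in 19 pairs, 11 of them over 0.1. Between normal and ischemic WT mice all 3 pairs were over 0.1 (0.12 to 0.192), and between the other groups not all were. Mice of unlike number were not correlated, so these values cannot show whether replicate numbers mark pairs. The labels do not say what a number marks. With the replicate block, 0 genes were called in WT mice and 0 members in the average (Cebpd at an FDR of 0.0748), and the values turned to 0.07 for Klf9 between the genotypes under normal conditions and to 0.02 for Cebpd after ischemia. With at least 10 counts in every mouse, ischemia in WT mice gave -0.01 for Sgk1 and -0.02 for Nr3c1, and with only the groups compared it gave -0.01 for Nr3c1. Calls by FDR alone reused the main fit, so their log2 fold changes could not differ from it. In the main fit Cebpd in the average was the only member value called. Of 460 log2 fold changes of members under these alternatives, 443 kept their direction and side of the limits, mostly as values not called. The causes were not tested.

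Leaving out each mouse in turn, the genes called ran from 0 to 3 in WT mice, from 5 to 174 in KO mice, from 60 to 361 in the average, from 0 to 29 between the genotypes under normal conditions and stayed at 0 after ischemia and for the interaction. Members called in the average ran from 0 to 3, the 3 being Cebpd, Mt1 and Mt2 without WT normal replicate 1. Mt2 was also called without KO normal replicate 1 and without WT ischemia replicate 1. Of 840 log2 fold changes of members, 60 in each of 14 fits, 39 turned sign. The 840 include comparisons of groups to which the mouse left out did not belong. With ischemia in WT mice the ranges were -2.57 to 2.08 for Fkbp5, -0.61 to 0.81 for Zbtb16, -0.25 to 0.49 for Sgk1 and -0.16 to 0.20 for Nr3c1. In the average they were -0.29 to 2.03 for Fkbp5 and -0.29 to 0.42 for Pdk4. Between the genotypes under normal conditions they were -2.61 to 1.76 for Fkbp5, -0.67 to 0.08 for Sgk1, -0.99 to 0.46 for Mt1, -1.38 to 0.89 for Mt2, -0.13 to 0.13 for Klf9, -0.87 to 0.19 for Pdk4 and -0.13 to 0.17 for Nr3c1. After ischemia they were -0.23 to 0.55 for Tsc22d3, -0.54 to 0.50 for Mt1, -0.51 to 0.78 for Mt2 and -0.47 to 0.45 for Cebpd. For the interaction they were -0.09 to 4.55 for Fkbp5, -0.74 to 0.03 for Tsc22d3, -0.59 to 1.06 for Mt1, -0.91 to 1.51 for Mt2 and -0.22 to 0.04 for Klf9. Depth was lowest for Fkbp5, with as few as 16 counts in a mouse.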

Other observations

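Clock genes, several of which glucocorticoids also set, were read as a list of 12. With ischemia averaged over the genotypes Per3 fell by 2.62 on the log2 scale (SE 0.50, FDR of 0.0271, edgeR's quasi-likelihood test), from 2.64 to 22 CPM in WT and 13.3 to 28 CPM in KO mice under normal conditions to 1.5 to 2.38 and 0.73 to 4.85 CPM after ischemia. Hlf was at -1.81 (SE 0.40, FDR of 0.0503) and Tef at -1.07 (FDR of 0.0954), both outputs of the clock. None of the 12 was called between the genotypes, as was so for all genes tested. Under normal conditions 4 of the 12 were higher and 3 lower in KO mice at an unadjusted p under 0.05 (5.25% of all genes in either direction). Arntl, which drives the clock, was at -3.62 (SE 0.83, FDR of 0.866), Npas2 at -2.85 (SE 0.64, FDR of 0.866) and Per2, which opposes it, at 1.33 (SE 0.41, FDR of 0.866). These 3 were chosen after their values were seen. In normal WT mice Arntl was at 60.7, 1.78 and 30.7 CPM and Npas2 at 52.4, 2.8 and 27.7 CPM. Normal KO mice had 0.768 to 4.33 CPM of Arntl and 2.82 to 5.53 CPM of Npas2, so WT replicate 2 was at the level of KO mice. Per2 did not overlap, at 42.8 to 108 CPM in WT and 131 to 260 CPM in KO mice. Klf9 was at -0.02 (SE 0.21) in the same comparison. The part of sampling time in these values was not tested.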
